A study of Homo sapiens with 3 samples.

Results

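The genes described here are 10 adhesion genes measured in RH30 cells: the cadherins CDH15, CDH2, CDH3 and CDH11, the catenin CTNNB1, the immunoglobulin adhesion molecules NCAM1 and L1CAM, and the laminin-binding integrin subunits ITGA6, ITGA7 and ITGB1. Every probe set that named exactly 1 of these genes was taken, which gave 23 of the 19064 probe sets that name 1 gene, and 10 of 11963 genes. RH30 is an established line of alveolar rhabdomyosarcoma, a childhood tumour with features of skeletal muscle. Its cells were left untreated, or received 10 µM of a peptide nucleic acid (PNA, a synthetic DNA mimic) aimed at MYCN, or 10 µM of a mutated PNA that the design text calls inactive. RNA was taken at 12 hours and put on Affymetrix arrays, 1 array per condition and 3 in all. No value therefore has a replicate error and no difference has a test. Differences are set beside the difference between the 2 controls, untreated and mutated PNA. The array called untreated carries a source name that says mutated PNA, while its title says untreated, so any direction between the controls rests on that label.

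Cadherins are calcium-dependent proteins that bind the same kind of cadherin on a neighbouring cell. Their tails hold beta-catenin, which links them through alpha-catenin to actin and which also acts as a transcriptional partner of TCF factors in Wnt signalling. Myoblasts carry M-cadherin, N-cadherin and NCAM before and during fusion into myotubes. Integrins of the alpha-6 and alpha-7 type pair with beta-1 and attach muscle cells to laminin in the basement membrane. NCAM and M-cadherin are both known as markers of the muscle lineage in rhabdomyosarcoma.

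Markers of the labelled cell type were read on the arrays. MYOD1, the master factor of myogenesis, had signals of 6715 without PNA, 6266 with the mutated PNA and 7834 with the anti-MYCN PNA. In all, 7 of the 13 muscle lineage markers on the array passed a filter on mean signal, set at the median of all signals (117). Over the whole array 6745 of 11963 genes did, a similar share, so that count is not read as a sign of muscle. MYF5, MYF6, MYH3 and MYH8 were among the muscle markers that did not pass. The summed signal of all 13 was 31174, 32772 and 42806 in the order untreated, mutated PNA, anti-MYCN PNA, which is the order of every later set of 3 signals. Most of that sum and of its difference is ACTC1, cardiac actin of immature muscle, at 17091, 19864 and 27505. DES, the muscle intermediate filament desmin, was the 1 muscle marker at least 1.5-fold above both controls, at 911, 923 and 1609. The markers did not move as one: myogenin (MYOG) at 748, 1238 and 1024 and the acetylcholine receptor subunit CHRNA1 at 4176, 2795 and 3286 lay between the controls, and the dim subunits CHRND and CHRNG, at 129.6, 102 and 83.7 and 84.6, 64.9 and 22, were lowest with the anti-MYCN PNA. Of 7 epithelial, 6 endothelial, 5 leukocyte and 5 neural markers on the array, KRT18 and TUBB3 passed the filter, each through a probe set whose probes also match other transcripts. CDH1, the epithelial cadherin, read 27.9, 2.2 and 46.3. MYCN itself read 3313, 2804 and 2202 in its brightest probe set, where anti-MYCN PNA was less than 1.5-fold below mutated PNA. Its dim probe sets read 55.3, 29.8 and 17.4, and 8.2, 9 and 11.3, so they differed in direction. The anti-MYCN PNA array also differed in the poly-A spikes, bacterial transcripts added as controls: over 24 probe sets their median ratio to the mutated PNA array was 0.382. The part of the spikes and of the muscle markers in the results below was not tested. In bulk RNA, fewer cells with a transcript and less of it per cell cannot be told apart.

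Of the 10 genes, CDH15 stood higher in anti-MYCN PNA cells than in both controls, and CDH11 and ITGA6 stood lower, each by at least 1.5-fold in its brightest probe set. The differences of CTNNB1 and NCAM1 lay within the range of the control differences, and none of the genes with a measurable signal reached 2-fold against both. CDH3 was too dim to compare. The filter was passed by 13 of the 23 probe sets and by 9 of the 10 genes, all of them with both control signals above it, so none passed through its anti-MYCN PNA value alone. Among these 9 genes, 1 was 1.5-fold higher and 2 were 1.5-fold lower than both controls. Over all 6745 genes compared, 8.27% were higher and 7.37% lower by that rule, and with arrays scaled to one median 3.77% and 14.0%, while the same 3 of the 9 genes were called. At 2-fold the background was 1.16% higher and 1.26% lower. Counted over probe sets, 1 of 13 was higher and 2 were lower, with a background of 8.07% and 8.06%. A count of 1 or 2 in 9 is not read as apart from that background. The median log2 difference of the 9 genes, anti-MYCN PNA minus the mean of the controls, was 0.07, and that of all genes was 0.06.

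**Figure D1:**
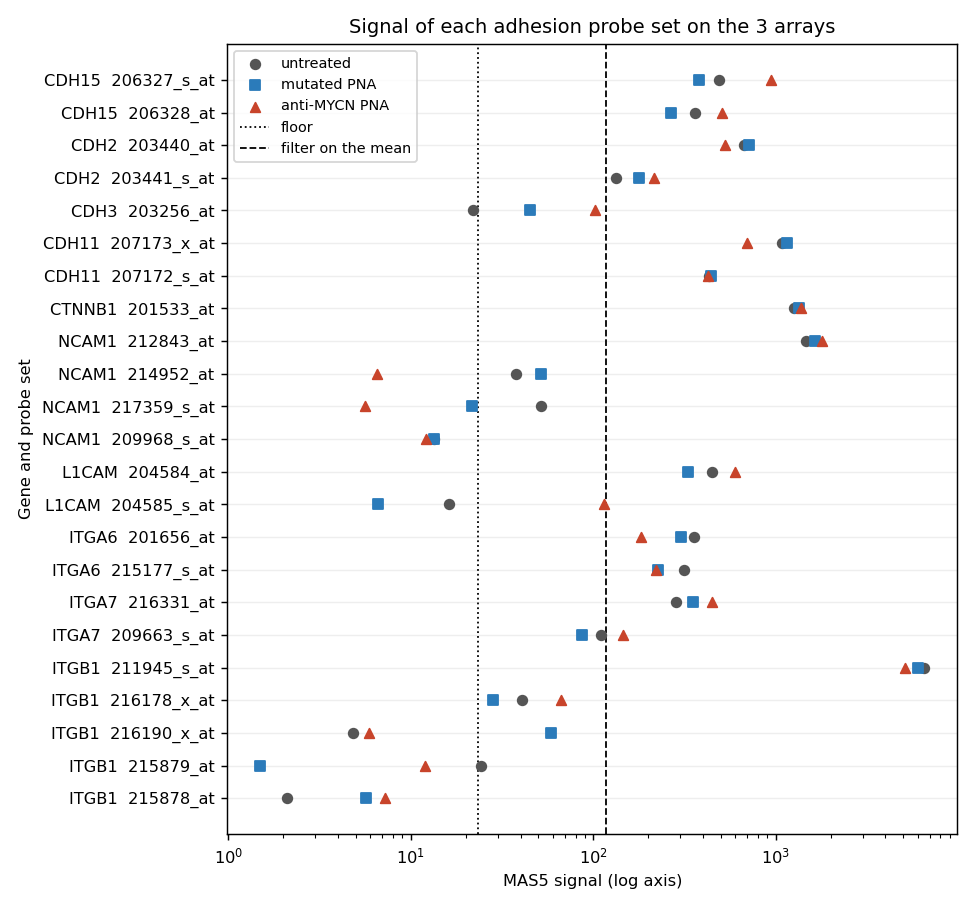
MAS5 signal (horizontal, log axis) of each of the 23 probe sets on the 3 arrays, marked by condition, with no replicates. Lines mark the floor of 23.4 and the filter of 117 on the mean, and in both CDH15 probe sets the anti-MYCN PNA array lies to the right of both controls.

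CDH15 encodes M-cadherin, the cadherin of myoblasts and satellite cells. Its brighter probe set, 206327_s_at, had signals of 492 without PNA, 379 with the mutated PNA and 943 with the anti-MYCN PNA. Its second, 206328_at, read 361, 267 and 511. In both, anti-MYCN PNA was the highest array and mutated PNA the lowest. The ratio of anti-MYCN PNA to mutated PNA was 2.49 in the first and 1.91 in the second, and to untreated 1.92 and 1.41. The log2 differences of the first, 1.32 and 0.94, lay outside the range of ±0.46 that held 95% of the control differences in 675 genes of like signal. Of these genes 4, CDH15 included, were as high against mutated PNA and 19 against untreated. For the second probe set the log2 difference of 0.94 to mutated PNA was outside its range of ±0.56, and that of 0.50 to untreated was inside. Mutated PNA minus untreated was −0.38 and −0.44, within the range both times. The direction was thus shared by both probe sets, and the 1.5-fold call rested on the brighter one, whose suffix _s_at marks probes shared by several transcripts.

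CDH2 encodes N-cadherin, the cadherin of neural and mesenchymal cells, and its 2 probe sets went opposite ways. The brighter, 203440_at, read 668 without PNA, 710.3 with the mutated PNA and 529 with the anti-MYCN PNA, so anti-MYCN PNA was lowest, at 0.744 of mutated PNA. The dimmer, 203441_s_at, read 133, 178 and 214, so anti-MYCN PNA was highest, at 1.21 times mutated PNA. The log2 differences to mutated PNA and to untreated were −0.43 and −0.34 in the brighter, against a like-signal range of ±0.46. In the dimmer they were 0.27 and 0.69, against ±0.94. All lay inside. With arrays scaled to one median the brighter probe set was at −0.61 and −0.54, outside its range of ±0.46 there. The probe sets ran opposite ways, so no direction is given for CDH2.

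CDH11 encodes OB-cadherin, found in mesenchymal and bone-forming cells. Its brighter probe set, 207173_x_at, read 1083 without PNA, 1157 with the mutated PNA and 697 with the anti-MYCN PNA. The log2 differences of −0.73 to mutated PNA and −0.64 to untreated lay outside the like-signal range of ±0.42. The other probe set, 207172_s_at, read 429, 443 and 425, with log2 differences of −0.06 and −0.01. The suffix _x_at marks probes that also match other transcripts, and the 2 probe sets did not share the lower value, so it is uncertain. CDH3, the placental cadherin of epithelia, has 1 probe set, 203256_at, at 21.9, 44.9 and 103. The anti-MYCN PNA array was the highest, but all 3 signals lay below the filter and 1 below the floor of 23.4 to which low signals were set. There the controls alone differed by 0.94 on the log2 scale.

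Beta-catenin, the product of CTNNB1, had the 3 values closest together among the brightest probe sets of the 10 genes. The probe set 201533_at read 1268 without PNA, 1341 with the mutated PNA and 1371 with the anti-MYCN PNA. Its log2 differences of 0.03 to mutated PNA and 0.11 to untreated were small beside the like-signal range of ±0.42, and their sign turned when arrays were scaled to one median. These signals do not measure the protein, whose level is set largely by its breakdown.

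**Figure D2:**
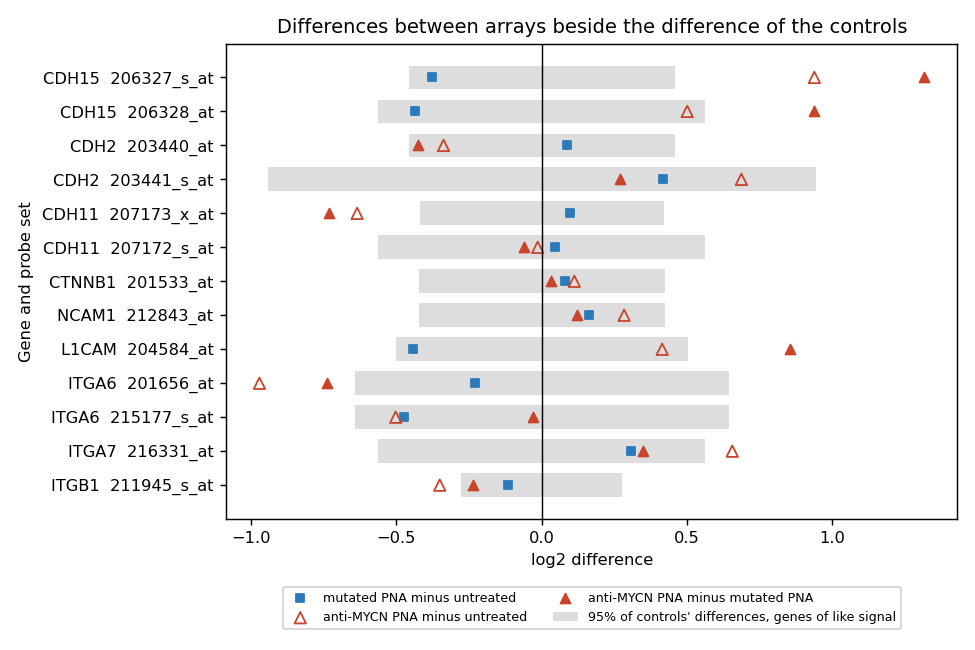
Log2 differences between arrays (horizontal) for the 13 probe sets that passed the filter, for mutated PNA minus untreated and for anti-MYCN PNA minus each control. Grey bars span 95% of the control differences in genes of like signal, and both anti-MYCN PNA points lie outside the bar in 1 probe set each of CDH15, CDH11 and ITGA6.

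NCAM1 encodes the neural cell adhesion molecule, which binds itself between cells and is used to identify rhabdomyosarcoma cells. Its bright probe set, 212843_at, read 1475 without PNA, 1651 with the mutated PNA and 1795 with the anti-MYCN PNA. The log2 differences of 0.12 to mutated PNA and 0.28 to untreated were within the like-signal range of ±0.42, and the first turned to −0.06 when arrays were scaled to one median. The other 3 NCAM1 probe sets did not pass the filter. The probe set 214952_at read 37.7, 51.7 and 6.5, and 217359_s_at read 51.6, 21.8 and 5.6. In both the anti-MYCN PNA array was lowest and below the floor, whereas it was highest in the bright probe set. In 217359_s_at mutated PNA was below the floor too, so the log2 difference to it was 0. No direction is read from signals this dim. The last, 209968_s_at, read 13.4, 13.4 and 12.1, below the floor on every array.

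L1CAM encodes an adhesion molecule of the same superfamily that binds itself, integrins and ankyrin. The probe set 204584_at read 449 without PNA, 331 with the mutated PNA and 599 with the anti-MYCN PNA. Anti-MYCN PNA was the highest array and mutated PNA the lowest, as for CDH15. The log2 difference of 0.86 to mutated PNA lay outside the like-signal range of ±0.50, and the difference of 0.41 to untreated lay inside it. The latter was 0.22 with arrays scaled to one median. Mutated PNA minus untreated was −0.44, so the controls were nearly as far apart as that range. The dim probe set 204585_s_at read 16.2, 6.6 and 115. It was highest on the anti-MYCN PNA array too, but both controls were below the floor and the mean below the filter.

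L1CAM has 2 overlapping promoter windows in the RefSeq tables of GRCh38.p14, and the more upstream one is printed because L1CAM lay above both controls and the window holds E-boxes. E-boxes, spelled CANNTG, are sites at which basic helix-loop-helix factors bind. CACGTG is the form preferred by MYC-family factors and CAGCTG one bound by myogenic factors, and each motif reads the same on both strands. The 250 bases before the start, on the minus strand at chrX:153876015-153876264, hold 3 E-boxes in capitals, 2 of them CAGCTG and none CACGTG.
L1CAM: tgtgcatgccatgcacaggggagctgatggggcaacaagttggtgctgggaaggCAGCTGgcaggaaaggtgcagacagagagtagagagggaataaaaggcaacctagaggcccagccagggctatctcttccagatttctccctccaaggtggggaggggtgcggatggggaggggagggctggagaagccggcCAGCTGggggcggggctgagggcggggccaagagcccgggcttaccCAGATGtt
The letters CAGCTG occur in 14.0% of 35116 promoter windows of that length, CACGTG in 6.34% and any CANNTG, which includes both, in 61.8%. A match describes letters only.

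ITGA6 encodes integrin alpha-6, a laminin receptor subunit that pairs with beta-1 or beta-4. The probe set 201656_at read 357 without PNA, 304 with the mutated PNA and 182 with the anti-MYCN PNA, so anti-MYCN PNA was lowest, at 0.510 of untreated and 0.599 of mutated PNA. Its log2 differences of −0.97 and −0.74 lay outside the like-signal range of ±0.64. Of 675 genes of like signal, 29, ITGA6 included, were as low against untreated and 47 against mutated PNA. The second probe set, 215177_s_at, read 313, 225 and 221. There anti-MYCN PNA and mutated PNA were level, with a log2 difference of −0.03, and both stood below untreated, with differences of −0.50 and −0.47. The 2 probe sets therefore share a value below untreated and not one below mutated PNA.

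Of the 9 promoter windows matched for CDH2, CTNNB1, L1CAM, ITGA6 and ITGB1, 1 contains CACGTG (6.34% of all windows), 4 contain CAGCTG (14.0%) and 5 any E-box (61.8%). The 4 windows belong to 2 genes, L1CAM and ITGA6, and the overlapping L1CAM windows share a CAGCTG. CDH15, CDH3, CDH11, NCAM1 and ITGA7 were not matched. The window with CACGTG belongs to ITGA6 and is printed for that reason. It covers the 250 bases before the more upstream of 2 starts, on the plus strand at chr2:172427086-172427335, with its 7 E-boxes in capitals.
ITGA6: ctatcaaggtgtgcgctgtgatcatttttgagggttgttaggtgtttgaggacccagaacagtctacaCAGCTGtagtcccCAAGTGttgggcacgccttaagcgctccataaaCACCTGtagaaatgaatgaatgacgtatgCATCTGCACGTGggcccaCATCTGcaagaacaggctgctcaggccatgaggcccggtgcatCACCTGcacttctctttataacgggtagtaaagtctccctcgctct
The CACGTG begins 101 bases before the start and directly follows a CATCTG that begins at 107, and the CAGCTG begins at 182. No binding was measured in these samples.

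ITGA7 encodes integrin alpha-7, the laminin receptor subunit of skeletal muscle. The probe set 216331_at read 285 without PNA, 352 with the mutated PNA and 449 with the anti-MYCN PNA. The log2 difference of 0.66 to untreated lay outside the like-signal range of ±0.56, and that of 0.35 to mutated PNA lay inside. With arrays scaled to one median they were 0.46 and 0.17, both inside the range of ±0.57 there. The second, 209663_s_at, read 110.3, 86.6 and 145, with a mean of 114 just under the filter. Anti-MYCN PNA was highest in both, while the controls changed order between them. ITGA7 and ITGA6, alternative laminin-binding partners of beta-1, thus lay on opposite sides of the controls in their brighter probe sets.

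ITGB1 encodes integrin beta-1, the shared partner of many alpha subunits. Its bright probe set, 211945_s_at, read 6524 without PNA, 6021 with the mutated PNA and 5115 with the anti-MYCN PNA. The anti-MYCN PNA array was lowest, at 0.784 of untreated and 0.850 of mutated PNA. In genes of like signal 95% of control differences lay within ±0.28, so the log2 difference of −0.35 to untreated was outside and that of −0.24 to mutated PNA inside. With arrays scaled to one median they were −0.55 and −0.41, both outside the range of ±0.27 there. The other 4 probe sets of ITGB1 had mean signals from 5.0 to 45.2, and none passed the filter. They went different ways: 216178_x_at read 40.8, 28.3 and 66.6, whereas 216190_x_at read 4.8, 58.9 and 5.9.

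By single contrasts, 2 of the 9 genes were at least 1.5-fold higher than mutated PNA (CDH15 and L1CAM) and 2 lower (CDH11 and ITGA6), against a background of 13.1% and 10.7% of genes. Against untreated, 2 were higher (CDH15 and ITGA7) and 2 lower (CDH11 and ITGA6), against 13.1% and 10.4%. With arrays scaled to one median CDH2 was also lower than mutated PNA, which made 3, and ITGA7 was no longer called, which left 1 higher than untreated. In that setting 6.88% of all genes were higher and 18.1% lower than mutated PNA, and 6.73% higher and 18.6% lower than untreated. These contrasts share the anti-MYCN PNA array. Beyond the like-signal range against both controls lay 1 gene on the higher side and 2 on the lower, where the background was 11.0% and 10.7%. Between the controls none of the 9 genes was 1.5-fold apart, and in all genes 2.4% were higher and 2.27% lower in mutated PNA. The differences between controls ran from −0.44 in L1CAM to 0.31 in ITGA7.

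**Figure D3:**
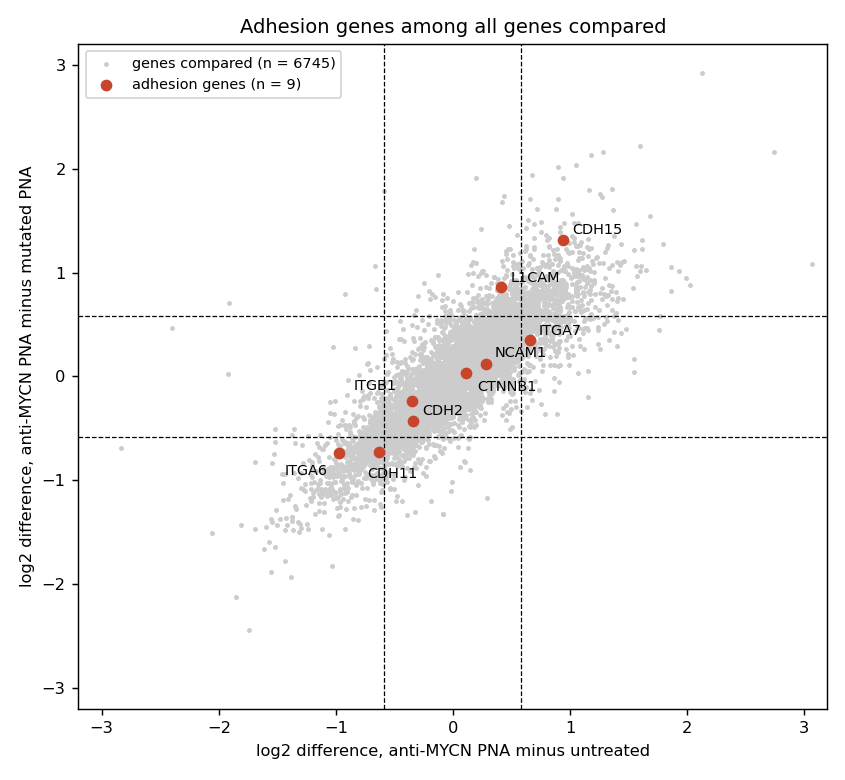
Log2 differences of anti-MYCN PNA from each control, on 1 axis each, for 6745 genes and the 9 adhesion genes that passed the filter, by the brightest probe set, with lines at 1.5-fold. The axes share the anti-MYCN PNA array, so points follow the diagonal; CDH15 is the 1 adhesion gene past both lines on the higher side, and CDH11 and ITGA6 are the 2 on the lower.

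The wider adhesion apparatus was read from 13 lists of 317 genes with textbook roles around these 10, of which 178 passed the filter. Of these, 21 (11.8%) were 1.5-fold higher and 9 (5.06%) lower than both controls, where all genes gave 8.27% and 7.37%. The 21 include 4 genes (CELSR3, FURIN, BCAM and LAMA5) that passed the filter with both control signals below it. With arrays scaled to one median 11 (6.18%) were higher and 22 (12.4%) lower, where all genes gave 3.77% and 14.0%; 11 of the 21 and all 9 of the 9 kept their call there. The 178 genes had a median log2 difference to the mean of the controls of 0.20, and all genes 0.06. The 178 were not matched for signal, and among all genes this median ran from 0.23 in the dimmest signal class to −0.04 in a bright one. The 0.20 is therefore not read as apart from all genes. List medians below are on that scale, and the difference given for a single gene is that to the nearer control. Each list's count with arrays scaled to one median follows its main count. Both counts stand beside the shares of all genes just given for their setting.

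Among other cadherins only CDH19, a cadherin of Schwann cell precursors, passed the filter. CDH19 read 689 without PNA, 805 with the mutated PNA and 536 with the anti-MYCN PNA and was not called. Of 9 protocadherins and related genes (median 0.08), CELSR3 and DCHS1 were higher, by 0.59 and 0.61, and none lower. With median scaling 0 were higher and 1, PCDH7, lower. CELSR3 passed the filter only through its anti-MYCN PNA signal. PCDH7, the brightest of them, had −0.42. Of 19 catenins and cadherin partners (median 0.16) none was higher. NECTIN3, an immunoglobulin-like protein of nascent cadherin contacts, was the 1 lower, at 247, 249 and 114. With median scaling 0 were higher and 3 lower. RHOA, the brightest, lay between the controls.

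In the list on beta-catenin turnover and TCF targets (median 0.07), 2 of 22 were higher and 2 lower, and with median scaling 1 and 2. APC, a scaffold of the complex that breaks beta-catenin down, read 264 without PNA, 286 with the mutated PNA and 123 with the anti-MYCN PNA. AXIN1, another scaffold of that complex, went the other way, at 179, 189 and 349.7. CSNK1D, a casein kinase, had a difference of 0.72, and LGR5, a receptor for R-spondins and a TCF target, one of −1.61. SKP1, the brightest, had −0.10.

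Of 12 genes of cadherin shedding (median 0.38) 3 were higher and 1 lower, and with median scaling 2 and 1. ADAM10, a protease that cuts N-cadherin and E-cadherin at the cell surface and the brightest here, read 3318 without PNA, 2937 with the mutated PNA and 1901 with the anti-MYCN PNA. MMP14, a membrane-bound matrix protease, read 229.9, 264 and 529. The convertase FURIN and the protease inhibitor TIMP2 were higher by 1.28 and 0.65, FURIN having passed the filter only through its anti-MYCN PNA signal.

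Of 14 other immunoglobulin adhesion molecules (median 0.38) 3 were higher and 1 lower, and with median scaling 2 and 1. JAM2 and JAM3 are junctional molecules that bind each other. JAM2 read 563 without PNA, 576 with the mutated PNA and 1023 with the anti-MYCN PNA, and JAM3 read 2730, 2880 and 4371. BCAM, a receptor for laminin alpha-5, was higher by 0.95 but passed the filter only by its anti-MYCN PNA signal. NRCAM, a relative of L1CAM, was lower, with a difference of −0.61, on the opposite side to L1CAM. NPTN, the brightest, had −0.07. Of 12 partners of NCAM and L1 (median 0.22) none was called, with median scaling 1 was lower, and SPTBN1, the brightest, lay between the controls.

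**Figure D4:**
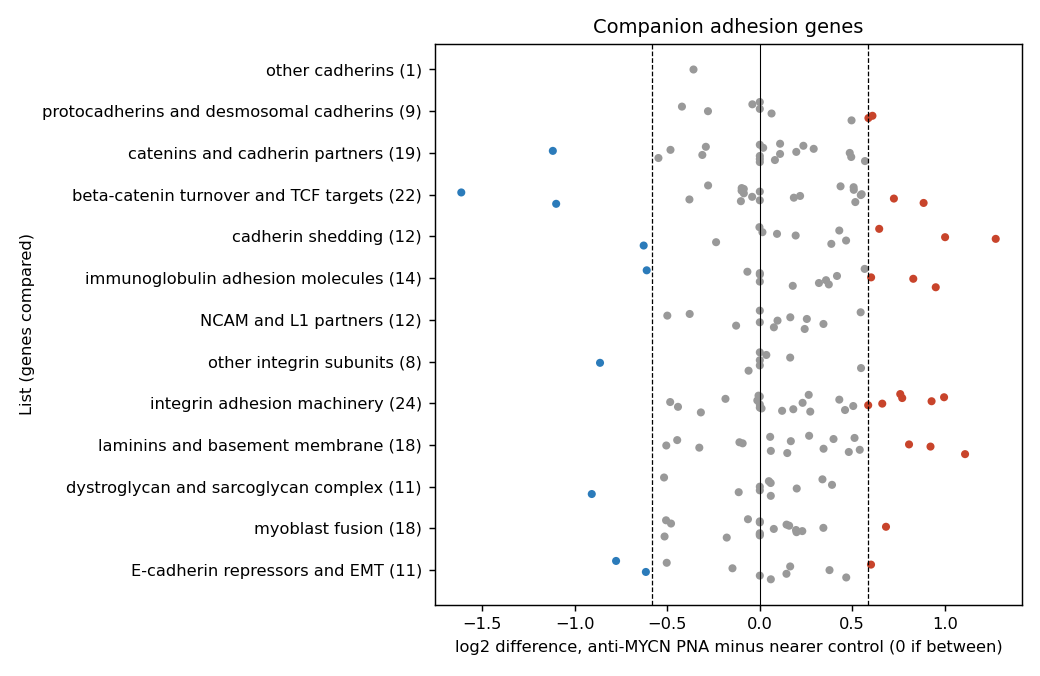
Log2 difference to the nearer control (horizontal, 0 where the anti-MYCN PNA array lies between the controls) for each listed gene that passed the filter, 1 list per line, with lines at 1.5-fold. In the list of integrin adhesion machinery 6 genes lie past the line on the higher side and none on the lower, where 8.27% and 7.37% of all genes were called. With arrays scaled to one median, which is not plotted, the list had 3 and 2, and all genes 3.77% and 14.0%.

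Of 24 genes of the integrin adhesion machinery (median 0.29), 6 were higher and none lower: TNS2, PXN, TLN1, ZYX, LIMS2 and ILK. With median scaling 3 were higher (TNS2, PXN and TLN1) and 2 lower. Over all genes 8.27% were higher and 7.37% lower, and with median scaling 3.77% and 14.0%. PXN, the focal adhesion adaptor paxillin, read 242 without PNA, 244 with the mutated PNA and 465 with the anti-MYCN PNA. TLN1, talin, which binds the beta subunit and switches integrins on, read 194, 217 and 371. ZYX, zyxin of actin-bound adhesions, read 671, 531 and 1136. In these genes the anti-MYCN PNA array was the highest, which the call requires, and the controls lay closer to each other than to it. Neither is a separate result. TNS2 and LIMS2 were higher by 1.00 and 0.66, and ILK, the integrin-linked kinase, by 0.59. CD63, the brightest, had 0.12.

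Of 8 other integrin subunits (median 0.05) 1 was lower and none higher, also with median scaling. ITGAV, the alpha-v subunit of vitronectin receptors, was that one and the brightest, and read 4434 without PNA, 4930 with the mutated PNA and 2437 with the anti-MYCN PNA. Of 18 laminins and basement membrane genes (median 0.30) 3 were higher and none lower, and with median scaling 3 and 2. AGRN, agrin of the basement membrane and the neuromuscular junction, read 314, 298 and 677. The laminin chains LAMA5 and LAMB2 were higher by 0.92 and 0.81. LAMA5 passed the filter with both control signals below it and LAMB2 with 1 below it. TNC, tenascin, the brightest, had 0.27.

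Of 11 genes of the dystroglycan and sarcoglycan complex (median 0.14), which like ITGA7 joins muscle fibres to laminin, 1 was lower and none higher, and with median scaling 2 were lower. DMD, dystrophin, was that one and read 1045 without PNA, 869.6 with the mutated PNA and 463 with the anti-MYCN PNA, while SGCB, the brightest, had 0.06. Of 18 myoblast fusion genes (median 0.12) 1 was higher, IQSEC1, an exchange factor for ARF6, at 186, 137 and 299. CDC42EP3, the brightest there, had −0.51 and was not called. With median scaling 0 of the fusion genes were higher and 3, CDC42EP3 among them, lower. Of 11 genes of E-cadherin repression and mesenchymal transition (median 0.18), ZEB2 and TCF4, factors that can repress CDH1, were lower, with differences of −0.78 and −0.62. VIM, vimentin and the brightest, was higher by 0.60, at 17131, 17201 and 26092. With median scaling 0 of these were higher and 3 lower.

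Likeness to CDH15 and to ITGA6 was measured over the 178 listed genes as the distance between pairs of log2 differences, to mutated PNA and to untreated. The nearest to CDH15 were TNS2, AGRN and BCAM, at distances of 0.07, 0.22 and 0.26. BCAM is among the genes that passed the filter only through the anti-MYCN PNA signal. The nearest to ITGA6 were ADAM10, DMD and ITGAV, at 0.20, 0.26 and 0.30. These distances rest on the same 3 arrays.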

How the data were processed

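Per the submitters' processing notes the authors used MAS5 and GCOS; the values they deposited are linear intensities, 1 per probe set and array. The 2% trimmed mean was 500.2 on each of the 3 arrays, so the deposited intensities share 1 scale by that measure. Their medians over gene probe sets differed, at 110.9 without PNA, 112.4 with the mutated PNA and 127.3 with the anti-MYCN PNA. Build and annotation were not given in the sources used here. Genes were named through GEO's platform annotation and RefSeq (GRCh38.p14). After rescaling to the same trimmed mean, any signal below the pooled 25th percentile (23.4) was replaced by that value before taking log2. Each gene was read from its brightest probe set and compared where that set's mean reached the pooled 50th percentile (117). Genes of like signal share 1 of 10 classes of mean signal. A call needs 1.5-fold (0.58 on the log2 scale) against both controls in 1 direction. Each condition has a single array, so nothing was tested, and the number of arrays limits precision.

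The 10 genes and all lists were chosen with earlier results of these data known. The text names every member gene and, per list, up to 5 called genes furthest from the nearer control in each direction and the brightest gene; for CDH15 and ITGA6 also the 3 nearest genes. ILK and the markers MYOD1, MYOG, MYF5, MYF6, MYH3, MYH8, CHRNA1, CHRND, CHRNG and CDH1 fall outside that rule and were named after their values were seen. The calling was run on simulated data with the same noise level for all genes. On these arrays the control spread falls with signal, so that run does not give the error of the calls here. Alternatives covered scaling, floor, filter, fold and choice of probe set. Versions were Python 3.11.15, pandas 2.3.3, numpy 2.4.6, matplotlib 3.10.9 and scipy 1.17.1.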

Additional observations from a re-analysis of the deposited data

How the results depend on the processing

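CDH15 was called higher and CDH11 and ITGA6 lower under median scaling, quantile normalization and the signals as deposited, and with no floor, a pseudocount of 32 and a floor at the 50th percentile. The deposited signals already share 1 trimmed mean, and the brightest probe sets of the 9 genes lie above either floor on every array. The deposited, no-floor and higher-floor settings could therefore not change these calls. At 2-fold and at 3-fold 0 of the member genes and probe sets were called either way. With the median over probe sets CDH15 remained and 0 genes were lower; CDH2 then lay at −0.08 to mutated PNA and 0.17 to untreated. Without _x_at and _s_at probe sets 0 were higher and 1, ITGA6, was lower, by genes and by probe sets, because the called probe sets of CDH15 and CDH11 carry those suffixes. With no filter 4 probe sets and 2 of 10 genes, CDH15 and CDH3, were higher, where 13.8% of all genes were. With the filter at the 75th percentile 1 gene and 1 probe set, of CDH11, were lower, ITGA6 lying below that filter. The median log2 difference of the member genes ran from −0.12 with median scaling, which moved the median of all genes from 0.06 to −0.13, to 0.20 without _x_at and _s_at probe sets. Of 210 single-gene differences under alternatives, 201 moved by less than 1 SD of the control difference in genes of like signal, 9 by more, and 0 called differences changed sign. The 201 include all differences of the deposited, no-floor and higher-floor settings, which could not move, so that count overstates stability. Of 275 companion genes without a filter 42 were higher and 14 lower, where all genes gave 13.8% and 6.35%. Without _x_at and _s_at probe sets 12 and 6 of 109 were called, against 8.14% and 9.07%. The stricter filter gave 7 and 4 of 104, against 4.50% and 6.77%. At 2-fold 3 and 3 of 178 were called, against 1.16% and 1.26%. These settings, and median scaling per list, were chosen after seeing the data. With 1 array per condition no array could be left out.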
